A study of Bos taurus with 9 samples.

Results

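The regions described here were 521 peaks of H3K9me3 (trimethylation of histone H3 at lysine 9) that were called in rumen epithelial tissue of Holstein calves before weaning, were still occupied by an H3K9me3 peak after weaning, and lay apart from every peak of RNA polymerase II (RNA pol II). They were chosen by a fixed rule from 4 peak lists. A peak of the H3K9me3 list before weaning was taken as a member if it shared at least 1 bp with a peak of the H3K9me3 list after weaning and shared no bp with a peak of RNA pol II at either time, and positions 50000001 to 52000000 of chromosome 17 were left out. The 521 members made up 21.6% of the 2410 H3K9me3 peaks before weaning (95% Wilson interval 20.0 to 23.3%), or 25.9% of the 2015 peaks outside that window. All 8 lists together held 130580 peaks.

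The series profiled 4 targets by chromatin immunoprecipitation and sequencing (ChIP-seq), namely H3K9ac, H3K27ac, RNA pol II and H3K9me3, each before and after weaning, and 1 input library. The rumen is the forestomach in which microbes ferment feed, and it matures as a calf goes over from milk to solid feed at weaning. The 2 groups shared breed and tissue. Their ages, the number of animals behind a library and any pooling were not given in the sources used here, and whole tissue holds more than 1 cell type. Each target was sequenced in 1 library at each time, so no difference between times could be set against a replicate error and no test of weaning was made. Intervals printed here are 95% Wilson intervals over peaks, cover counting error alone, and are too narrow where neighbouring peaks belong together. Sequencing lane moved with time for H3K9me3, with lane 2 before and lane 1 after weaning, so the effects of lane and weaning on this mark cannot be told apart. The labels gave the shorter RNA pol II list to the time after weaning while the text of the paper gave it to the time before. Membership used both lists and did not depend on this, and before and after follow the labels throughout.

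H3K9me3 is written by histone methyltransferases such as SUV39H1, SUV39H2 and SETDB1 and is bound by HP1 proteins, which compact the chromatin. The mark is known at pericentromeric satellites, at transposable elements and at clusters of zinc finger genes, where it goes with repression. H3K9ac and H3K27ac are marks of active promoters and enhancers, and acetylation and trimethylation of lysine 9 cannot sit on the same histone tail at the same time. RNA pol II transcribes protein-coding genes, and its peaks mark places where the enzyme is engaged. Acetylation and RNA pol II are usually sparse where H3K9me3 is found. Genes and sequence at the members were not analysed here, since the lists are on the assembly UMD3.1.1 and no genome or annotation of that build was used.

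The rule divided the 2015 peaks outside the window into 4 classes. Besides the 521 members there were 432 stable peaks that touched RNA pol II, 1008 lost peaks free of RNA pol II and 54 lost peaks that touched it. Of the 1529 peaks free of RNA pol II, 34.1% were kept (31.7 to 36.5%), against 88.9% of the 486 peaks that touched RNA pol II (85.8 to 91.4%). These shares follow from the lists that define the classes and are given as a description. Close to the limit of the rule, the smallest stretch a member shared with a peak after weaning was 5 bp, and 7 members shared under 50 bp. On the other side of the limit, the nearest lost peak lay 14 bp from a peak after weaning, and 18 lost peaks lay within 100 bp of one. The member nearest to RNA pol II was 10 bp away from it, and the smallest overlap that removed a stable peak was 84 bp.

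The members were narrow. Their width before weaning ran from 200 bp, the lowest width in the list, to 1345 bp, with a median of 275 bp and quartiles of 222 and 370 bp, and they covered 167.5 kb in all. The median was 225.5 bp for the lost peaks free of RNA pol II and 519 bp for the stable peaks touching it. Peaks at the lowest width of 200 bp were 7.68% of the members (40 peaks), 26.7% of the lost peaks free of RNA pol II and 0.463% of the stable peaks touching RNA pol II. Members thus lay between both other large classes in width. A wide peak meets another peak more readily than a narrow one, so width is tied to the rule and this order was not tested.

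The widest member, at chr8:92399864-92401208, was 1345 bp wide and its partner, the peak after weaning that shared most bp with it, was 1340 bp wide. A neighbour in the same domain at chr8:92404632-92405784 was 1153 bp wide before and 1187 bp after weaning. These 2 peaks kept nearly the same width, as did the member at chr11:61801537-61802420, with 884 bp before and 921 bp after weaning. The second widest member, at chr9:7753121-7754355, was 1235 bp wide and its partner 454 bp. The member at chr17:25034237-25035248 was 1012 bp wide before weaning and lay inside a partner of 2503 bp. The other 5 of the 10 widest members were 712 to 968 bp wide, on chromosomes 4, 6, 8 and 17, and their partners were 318 to 4450 bp wide.

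Across all members the peaks after weaning were somewhat wider. The partners had a median width of 340 bp (quartiles 254 and 517 bp) and a highest width of 8908 bp. The ratio of partner width to member width had a median of 1.14, with quartiles of 0.936 and 1.71 and a range of 0.366 to 42.2. The partner was wider for 333 members (63.9%, 59.7 to 67.9%), equal for 12 and narrower for 176 (33.8%). It was at least 2 times wider for 94 members (18.0%) and at most 0.5 times as wide for 9 (1.73%). For the 432 stable peaks touching RNA pol II the median ratio was 1.01, and the partner was wider for 52.1% (47.4 to 56.8%). The whole H3K9me3 lists went the other way, with a median of 275.5 bp for the 2410 peaks before weaning and 247 bp for the 4170 peaks after it. Partners were picked by overlap, which favours wide peaks, so the contrast between partners and list is tied to the rule and was not tested.

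The ratio has the member's own width as its denominator, and no peak is narrower than 200 bp, so narrow members had higher ratios by construction. Members narrower than the median had a median ratio of 1.30 (259 peaks) and the other 262 a median ratio of 1.02. The edges of most pairs lay close together, with the partner reaching a median of 16 bp beyond the member on the left and 13 bp on the right. A partner contained its member in 215 pairs (41.3%), lay inside it in 66 (12.7%), was shifted to 1 side in 234 (44.9%) and had identical edges in 6. The median member had 97.0% of its length covered after weaning, and 221 members (42.4%) were covered in full.

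Some peaks after weaning joined several peaks before. The 521 members were touched by 501 peaks after weaning, second overlaps of 5 members included, which covered 247.3 kb or 1.48 times the length of the members, and 1.37 times without the 11 members of 1 domain on chromosome 8 described further on. Of the 501, 17 (3.39%) touched 2 or more members, 11 with 2, 4 with 3 and 2 with 4, or 42 members together. Counting H3K9me3 peaks before weaning of any class, 45 of the 501 (8.98%, 6.78 to 11.8%) touched 2 or more. The 5 largest ratios, 20.6 to 42.2, came from 2 domains on chromosomes 17 and 8. At chr17:25038432-25038642, a member of 211 bp lay inside a partner of 8908 bp that held 3 members. At chr8:83248232-83248440, a member of 209 bp lay inside a partner of 6113 bp. The smallest ratio, 0.366, belonged to the member of 868 bp at chr6:6266705-6267572, which held 2 peaks after weaning, the main one 318 bp wide.

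**Figure D1:**
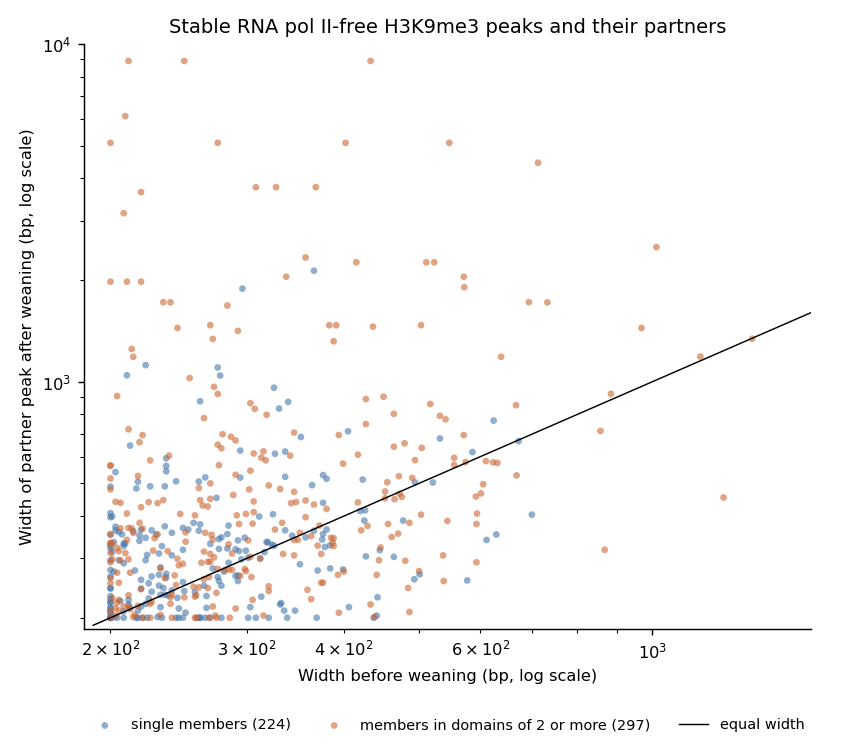
Width of each of the 521 members before weaning (x axis, bp, log scale) against the width of its partner peak after weaning (y axis, bp, log scale), blue for the 224 single members and orange for the 297 members in domains of 2 or more. The black line is equal width, and 333 points lie above it, with partners wider than 2131 bp found among orange points alone.

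Though none touched RNA pol II, many members lay near it, as did the list. The median distance from a member to the nearest RNA pol II peak of either time was 17.4 kb, and it was 393.6 kb for the lost peaks free of RNA pol II. Within 10 kb of an RNA pol II peak lay 244 members (46.8%, 42.6 to 51.1%) and 144 of the 1008 lost peaks (14.3%, 12.3 to 16.6%). Within 1 kb the numbers were 111 members (21.3%) and 53 lost peaks (5.26%). Over all 2015 H3K9me3 peaks, which include the 486 touching RNA pol II, 43.4% lay within 10 kb and 32.3% within 1 kb. The rule took those 486 out of the members, so the lower share of members at 1 kb was partly built in. Beside the lost peaks, which also touch no RNA pol II, members had the higher share at both limits. Peaks after weaning were not held to the rule on RNA pol II, and 30 of the 501 that touched a member (5.99%) touched an RNA pol II peak. Those 30 had a median width of 995.5 bp, against 324 bp for the others. Of the 30, 14 touched a peak of the RNA pol II list before weaning and 28 a peak of the list after weaning.

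Members gathered into small domains. When members with at most 10 kb between their edges were chained, they formed 307 domains, of which 224 held a single member and 83 held 2 or more. Those 83 domains held 297 members (57.0%, 52.7 to 61.2%), the 16 domains of 5 or more held 132, and the 5 largest held 67 (12.9%). Chained in the same way, 53.0% of all 2015 H3K9me3 peaks (50.8 to 55.2%) were in domains of 2 or more, as were 21.5% of the 1008 lost peaks free of RNA pol II and 75.5% of the 432 stable peaks touching it. Members thus gathered about as much as the whole list, although a list with more peaks chains more readily. The span of the 83 domains had a median of 5.10 kb and ran from 0.676 to 68.1 kb, and the median space between neighbouring members inside them was 1499.5 bp. Most stable peaks that touched RNA pol II sat near members, since 291 of those 432 (67.4%) lay within 10 kb of a member. The share was 13.3% of the lost peaks free of RNA pol II (134 peaks) and 12.7% of the 2817 peaks after weaning that had no peak before (357 peaks).

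Inside the 83 domains of 2 or more members, H3K9me3 peaks of all classes covered 199.4 kb before and 233.1 kb after weaning, out of a summed span of 620.2 kb. Over the whole lists outside the window the covered length was 695.4 kb before and 1207 kb after weaning, a ratio of 1.74 that includes peaks at new places. Inside the domains the ratio was 1.17, and 1.09 without the domain on chromosome 8 that gained most, 16.2 kb. More bp were covered after weaning in 52 of the 83 domains (62.7%, 51.9 to 72.3%). The median share of a domain that was covered was 34.9% before and 38.8% after weaning.

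The largest domain, at chr17:25033192-25101339, spanned 68.1 kb with 21 members. H3K9me3 covered 43.9% of it before and 52.3% after weaning, with 51 and 46 peaks. It also held 11 RNA pol II peaks before and 27 after weaning, 2 and 5 H3K9ac peaks, and 0 and 3 H3K27ac peaks. The whole RNA pol II lists went the other way, with 2056 peaks before and 738 after weaning. Partners were wider for 17 of its 21 members, with a median width of 374 bp for the members and 859 bp for their partners. The widest partners lay in its left part, where a peak of 8908 bp held 3 members, those of 3155 and 2503 bp held 1 each and one of 2257 bp held 3.

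The second domain, at chr9:7752775-7801281, spanned 48.5 kb with 14 members and went the other way. Its cover was 46.0% before and 40.0% after weaning, with 44 and 42 peaks, and the partner was wider for 7 of the 14 members. RNA pol II had 19 and 27 peaks in it, H3K9ac 4 and 13, and H3K27ac 3 and 8. The third, at chr19:4008996-4042575, spanned 33.6 kb with 12 members, with 25.2% covered before and 29.5% after weaning, and partners were wider for 10 of the 12. It held 5 and 8 RNA pol II peaks. In these 3 domains members stood among H3K9me3 peaks that touched RNA pol II, at distances of 53 to 7491 bp from the nearest RNA pol II peak.

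The fourth domain, at chr8:83236585-83258496, was of another kind. Its 21.9 kb held 11 members and no other H3K9me3 peak before weaning, with 18.7% of it covered. After weaning 6 peaks covered 92.8%. The partners were 793 to 6113 bp wide around members of 200 to 712 bp, all 11 were wider, and the median ratio was 12.2. The domain held no peak of H3K9ac, H3K27ac or RNA pol II at either time. The nearest H3K27ac peak lay 132.8 kb away before and 133.2 kb after weaning, and the nearest RNA pol II peak was over 2 Mb away. The fifth domain, at chr10:92081829-92094139, had 9 members over 12.3 kb, with 35.7% covered before and 52.3% after weaning and partners wider for 8 of the 9. It held 1 RNA pol II peak at each time, and an H3K9ac and an H3K27ac peak after weaning alone.

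**Figure D2:**
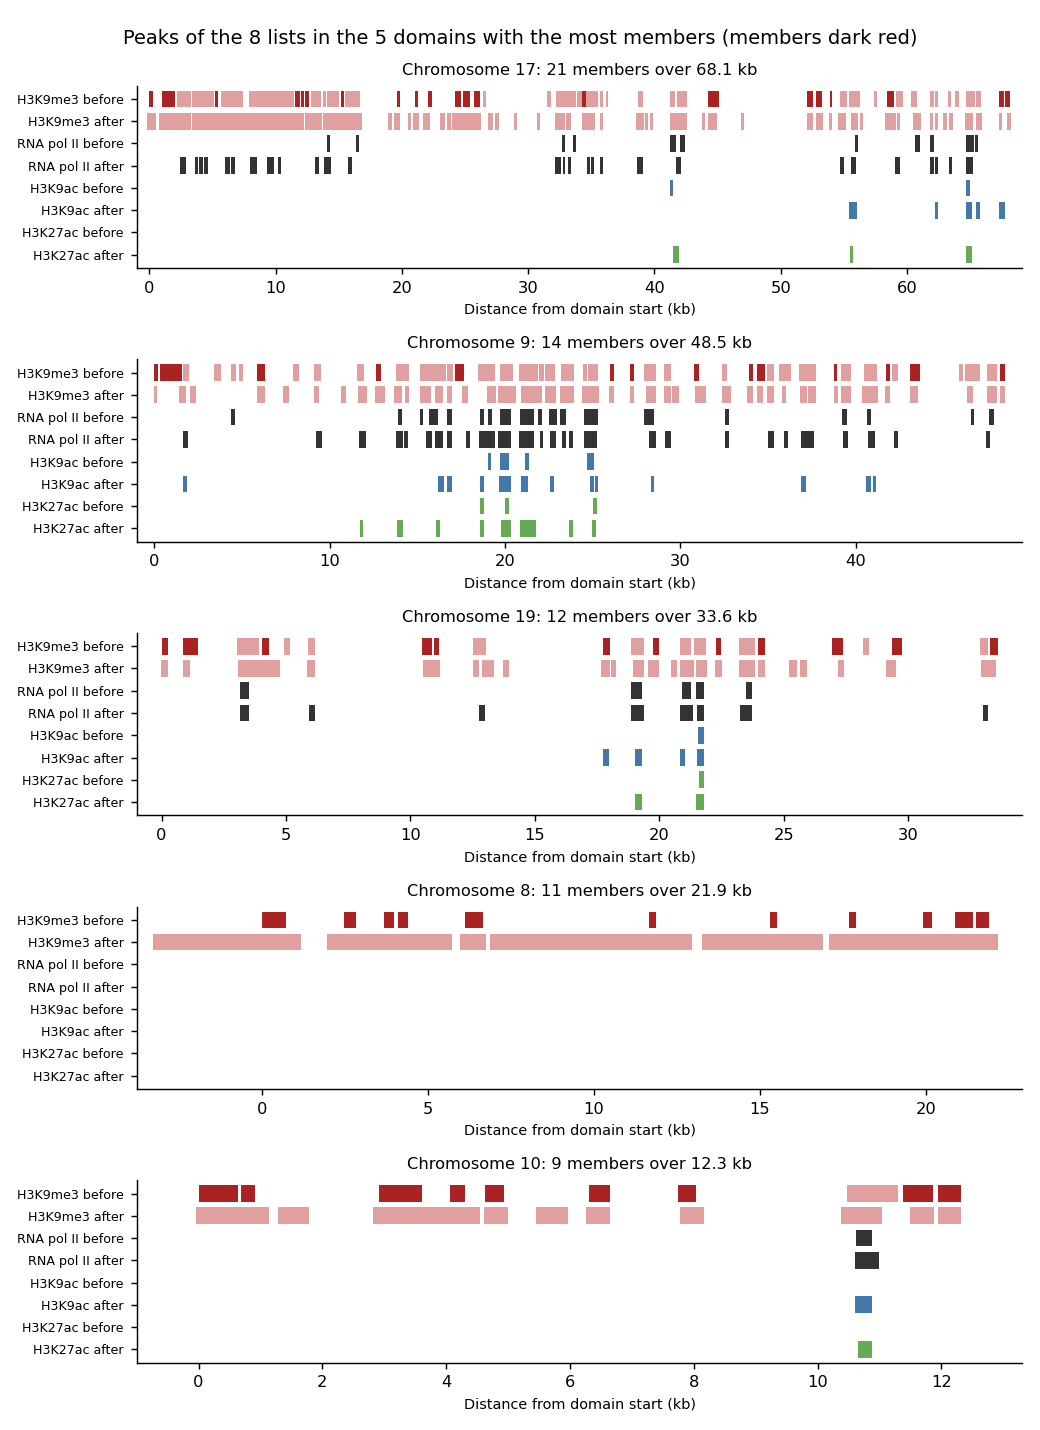
Peaks of the 8 lists in the 5 domains with the most members, with the distance from the start of each domain in kb on the x axis and 1 row per target and time. Dark red bars are members and pale red bars other H3K9me3 peaks, and in the chromosome 8 domain the 11 separate members before weaning stand against 6 long peaks after weaning with the other 6 rows empty.

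The absence of other lists was common among the domains. Of the 83 domains of 2 or more members, 47 (56.6%, 45.9 to 66.8%) held no peak of the 6 lists of H3K9ac, H3K27ac and RNA pol II, and those 47 held 121 members. The rule had already kept RNA pol II off every member. Of the domains of 2 or more formed in the same way, 105 of 237 (44.3%, 38.1 to 50.7%) were free of the 6 lists for all 2015 H3K9me3 peaks, and 60 of 83 (72.3%, 61.8 to 80.8%) for the lost peaks free of RNA pol II. An RNA pol II peak of either time stood inside 33 (39.8%). H3K9ac peaks stood inside 9 before and 23 after weaning, and H3K27ac peaks inside 4 before and 19 after weaning. In 4 domains all 8 lists had a peak. The next largest domain with no other list was at chr13:50367257-50378026, chosen after its values were seen, with 6 members over 10.8 kb. Its cover was 16.97% before and 14.13% after weaning, and none of its 6 partners was wider than its member.

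Members in domains and single members differed in their surroundings. The 297 in domains had a median width of 290 bp, a median partner width of 382 bp and a median ratio of 1.25, and the 224 single members had 258 bp, 305 bp and 1.07. The median distance to RNA pol II was 2.38 kb for members in domains and 302.1 kb for single members. The upper quartile in domains, 49.7 kb, lay near the lower quartile of single members, 37.3 kb.

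All 30 chromosomes on which the list had peaks held a member, but unevenly. Chromosome 9 had 48, chromosome 6 had 46, chromosome 17 had 40, chromosome 19 had 38 and chromosome 8 had 35, together 207 members or 39.7%. The same 5 chromosomes held 33.4% of the 2015 peaks of the list, and members made up 27.6% of the list on chromosome 9, 27.5% on chromosome 6, 33.6% on chromosome 17, 32.8% on chromosome 19 and 36.1% on chromosome 8, beside 25.9% overall. The order of the chromosomes therefore followed that of the whole list in large part. Chromosomes 20 and 26 had 2 each. Per 100 Mb there were 19.6 members over all chromosomes, 59.4 on chromosome 19, 53.2 on chromosome 17, 52.4 on chromosome 27 and 2.8 on chromosome 20. On chromosome 17, 36 of the 40 members were in domains of 2 or more, and on chromosome 27 this held for 2 of 23. In bins of 1 Mb, 208 of 2675 bins held a member and the 26 bins with 5 or more held 249. Those 26 bins also held 31.3% of the whole list (630 peaks). The fullest bin was 25 to 26 Mb of chromosome 17 with 26 members of 64 list peaks, followed by 6 to 7 Mb and 5 to 6 Mb of chromosome 6 with 19 of 72 and 18 of 59.

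Cattle autosomes are acrocentric, with the centromere at 1 end. The first 3 Mb of the autosomes held 49 of 506 autosomal members (9.68%, 7.40 to 12.6%) on 3.47% of their extent, against 6.81% of all autosomal H3K9me3 peaks outside the window (131 of 1925). Chromosome 14 gave 21 of the 49, and without it, a choice made after seeing the data, the shares were 5.92% of members (28 of 473, 4.13 to 8.42%) and 4.75% of the list. The last 3 Mb held 13 (2.57%), against 2.81% of the list. The list counts the members too, and no test of these shares was made. In the first 10 kb of chromosomes 12, 14, 15, 16 and 20 a member started, 5 in all of 9 peaks of the list that did.

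**Figure D3:**
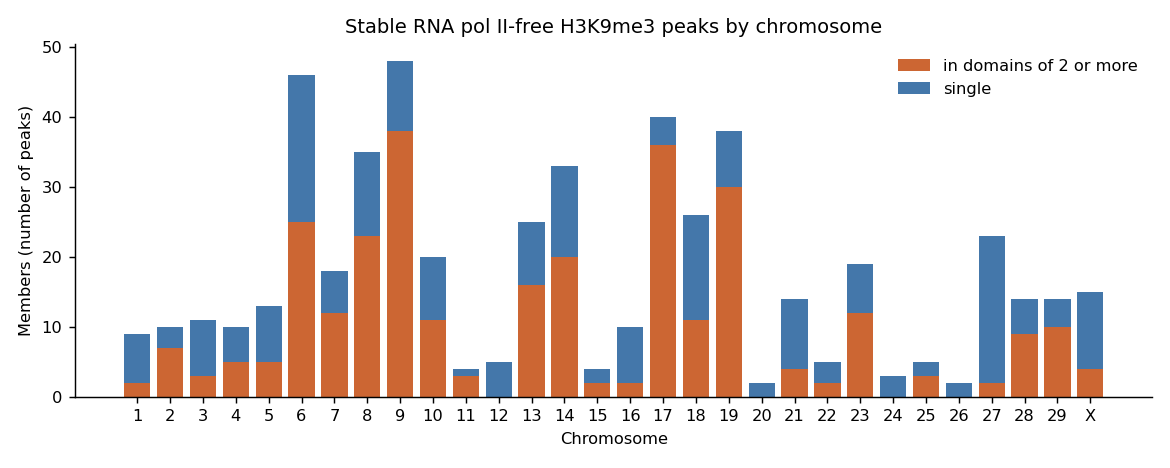
Number of members on each chromosome (y axis) by chromosome (x axis), stacked with orange for members in domains of 2 or more and blue for single members. Chromosomes 9, 6, 17, 19 and 8 carry the tallest bars, 48 to 35 members, and the bar of chromosome 27 is nearly all blue.

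The rule did not use the acetylation lists. It did remove peaks on RNA pol II, and most acetylation peaks near members after weaning touched RNA pol II, so distances to acetylation are partly tied to the rule. The nearest H3K27ac peak was at a median of 113.5 kb before and 49.1 kb after weaning. The nearest H3K9ac peak was at 106.5 kb before and 113.9 kb after weaning. Over all 2015 H3K9me3 peaks the medians were 75.6 and 44.9 kb for H3K27ac and 100.98 and 155.9 kb for H3K9ac. For the lost peaks free of RNA pol II they were 71.1 and 89.5 kb for H3K27ac and 161.8 and 405.5 kb for H3K9ac. For the stable peaks touching RNA pol II they were 60.9 and 1.27 kb for H3K27ac and 15.6 and 0.337 kb for H3K9ac. Peak by peak, members were farther from H3K27ac than the lost peaks before weaning and nearer after. By median, the stable peaks touching RNA pol II lay nearer than members to both marks at both times. Measured once from the edges of each domain, a choice made after seeing the data, the H3K27ac medians after weaning were 96.4 kb for members and 94.5 kb for the lost peaks. Before weaning they were 101.9 and 68.3 kb. The shorter distance after weaning thus rested on members that share a domain, while the longer one before weaning remained. Without the 5 largest domains, also chosen after seeing the data, the median over members after weaning was 64.5 kb. The acetylation lists were shorter after weaning, with 74249 and 30446 peaks of H3K27ac and 14384 and 2127 peaks of H3K9ac. With the lists before weaning cut to their widest peaks, equal in number to those after, an alternative chosen after seeing the data, the medians before weaning were 204.6 kb for H3K27ac and 1056 kb for H3K9ac. The H3K9ac median after weaning was 1.07 times that before with all peaks and 0.108 times with this cut. The cut shortens the lists before weaning alone, so it can only lengthen distances before weaning and lower the ratio. It therefore does not decide the direction.

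Within 10 kb of an H3K27ac peak lay 59 members before weaning (11.3%, 8.88 to 14.3%), where 17.6% of all 2015 H3K9me3 peaks did. After weaning there were 158 (30.3%, 26.5 to 34.4%), where 32.0% of all did. For H3K9ac the counts were 91 before (17.5%, 14.4 to 21.0%), beside 20.0% of all, and 163 after weaning (31.3%, 27.5 to 35.4%), beside 29.8%. After weaning the members were thus near the share of the whole list for both marks, and before weaning they were below it for H3K27ac. The list blends unlike classes. Within 10 kb of H3K27ac after weaning lay 15.4% of lost peaks free of RNA pol II and 71.3% of stable peaks touching it. For H3K9ac these shares were 10.3% and 72.5%, so members lay between both classes. Near H3K27ac after weaning alone were 113 members, before weaning alone 14 and at both times 45. The same counts for H3K9ac were 81, 9 and 82. The nearest H3K27ac peak was closer after than before weaning for 276 members (53.0%), beside 46.4% of all peaks and 28.9% of the lost peaks free of RNA pol II. For H3K9ac it was closer for 258 members (49.5%), beside 40.7% and 26.5%.

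The short distances after weaning were found mostly in the domains. Within 10 kb of H3K27ac after weaning lay 128 of the 297 members in domains (43.1%, 37.6 to 48.8%) and 30 of the 224 single members (13.4%, 9.54 to 18.5%). Before weaning the shares were 11.1% and 11.6%. The median distance to H3K27ac was 121.2 kb before and 14.8 kb after weaning in domains, and 99.99 kb and 117.7 kb for single members. For H3K9ac it was 45.1 kb and 14.1 kb in domains and 228.6 kb and 448.4 kb for single members. Neighbours in a domain share their nearest acetylation peak, so these members are not independent. With 1 value for each of the 307 domains, the H3K27ac median after weaning was 0.946 times that before, where the ratio over members was 0.432. Per domain, single peaks included, the stable peaks touching RNA pol II had a median of 0 kb to each mark after weaning. Nearness in domains was thus not particular to members.

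**Figure D4:**
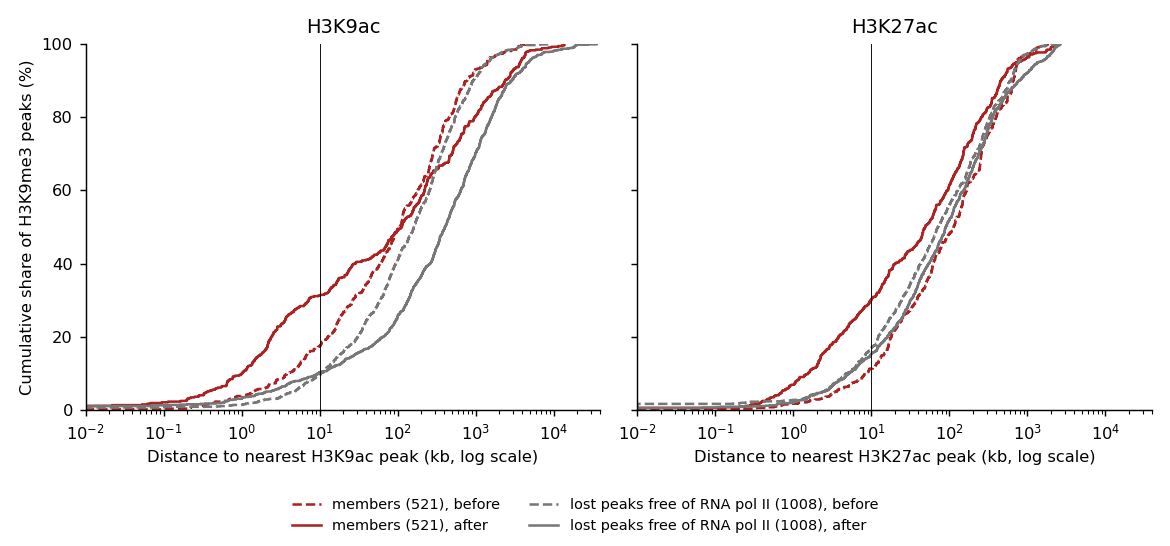
Cumulative share of peaks (y axis, %) by distance to the nearest H3K9ac peak (left) and H3K27ac peak (right) on a log axis in kb, for the 521 members (red) and the 1008 lost peaks free of RNA pol II (grey), before (dashed) and after weaning (solid), with distances under 10 bp drawn at 10 bp. At the thin line at 10 kb the red solid curves reach 31.3% and 30.3%, above the other 3 curves of each panel.

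Most acetylation peaks that lay close to members were themselves on H3K9me3, except those of H3K27ac before weaning. After weaning 127 H3K27ac peaks lay within 10 kb of a member, and 107 of them (84.3%, 76.9 to 89.6%) touched an H3K9me3 peak of the same time, against 0.821% of the whole H3K27ac list. An RNA pol II peak touched 102 of the 127 (80.3%), against 0.801% of the list. In 25 of the 127 (19.7%) an H3K27ac peak had been there before weaning, where the share over the list was 76.9%. Of the 148 H3K9ac peaks near members after weaning, 143 (96.6%) touched H3K9me3, against 14.2% of the list, 127 (85.8%) touched RNA pol II, against 13.4%, and 42 (28.4%) had an H3K9ac peak before, against 44.3%. Before weaning 15 of 64 H3K27ac peaks near members (23.4%, 14.7 to 35.1%) touched H3K9me3, against 0.0741% of the list. For H3K9ac it was 50 of 58 peaks (86.2%), against 0.911% of the list. RNA pol II of the same time touched 21.9% of the 64, against 2.07% of the list, and 77.6% of the 58, against 7.07%. A peak within 10 kb of a member is by that close to an H3K9me3 peak, so part of each share comes with the choice of place.

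When acetylation peaks touching H3K9me3 of the same time were left out, a choice made after seeing the data, distances grew at both times. This setting takes away peaks close to H3K9me3 by construction, 107 of the 127 near members after weaning and 15 of the 64 before for H3K27ac, so the lengthening was built in. The median distance to the remaining H3K27ac peaks was 151.9 kb before and 195.3 kb after weaning, a ratio of 1.29. Within 10 kb then lay 6.72% of members before and 4.03% after weaning for H3K27ac, and 2.11% and 1.73% for H3K9ac. With members within 10 kb of RNA pol II left out, 277 members remained, and the H3K27ac ratio was 1.03. RNA pol II was part of the rule, so this setting narrows the members along a list already used. The input was shared by all lists, and its part in these distances was not tested.

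**Figure D5:**
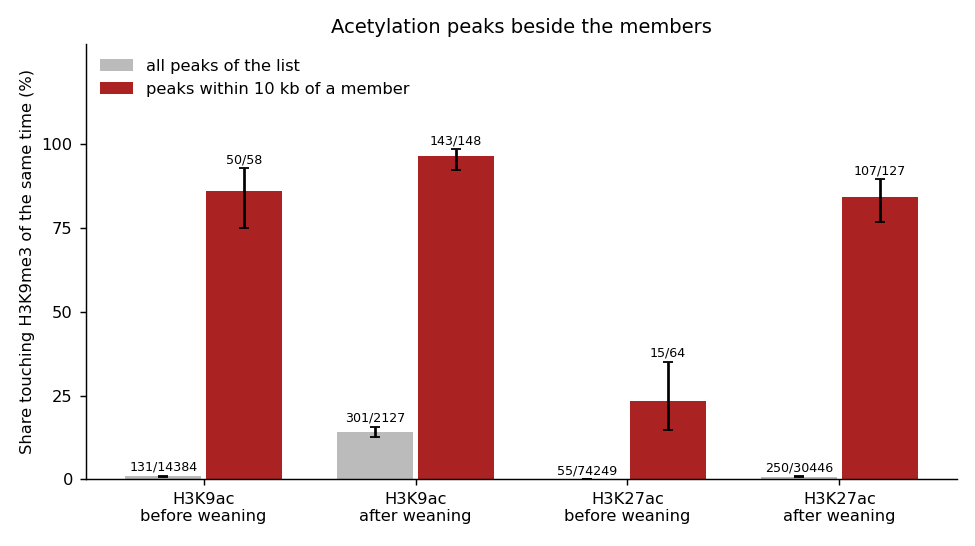
Share of acetylation peaks that touch an H3K9me3 peak of the same time (y axis, %) for all peaks of a list (grey) and for the peaks within 10 kb of a member (red), with 95% Wilson intervals as bars and counts above them. The red bars stand at 86.2% and 96.6% for H3K9ac and at 23.4% and 84.3% for H3K27ac, before and after weaning.

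Direct contact of a member with acetylation was rare. At least 1 bp was shared with H3K9ac by 1 member before weaning (4.86% of all 2015 peaks did) and 6 after (10.8% of all). The counts for H3K27ac were 1 member before (2.28% of all) and 3 after weaning (8.49% of all). In all, 10 members (1.92%, 1.05 to 3.50%) touched any of the 4 lists, beside 13.7% of the 2015 peaks, which include those on RNA pol II. Among the 1008 lost peaks free of RNA pol II it was 25 (2.48%, 1.69 to 3.64%). Neighbouring peaks are not independent, and the difference between these shares was not tested. The widest of the 10, at chr17:25116117-25117084, touched H3K9ac after weaning and lay 17.9 kb from it before. The next, at chr9:88636105-88636715, was 611 bp wide, touched H3K27ac before weaning and lay 194.9 kb from it after, with RNA pol II over 2 Mb away. The members at chr17:25100947-25101339 and chr17:25100490-25100863 touched H3K9ac after weaning, and that at chr3:17429538-17429913 touched H3K27ac after weaning, where the nearest peak before was 45.8 kb away. A member of 301 bp at chr8:108727140-108727440, named after its values were seen, touched H3K9ac at both times and had the same edges in both H3K9me3 lists.

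At the other extreme, 140 members (26.9%, 23.2 to 30.8%) were over 100 kb from all 4 acetylation lists, beside 25.4% of all 2015 peaks. Their median width was 269 bp and their median ratio 1.20, and 62 of them (44.3%) were in domains of 2 or more. The member farthest from H3K27ac before weaning, at chr16:15421255-15421538, was 1824 kb from it. Its nearest H3K27ac peak after weaning was 2375 kb away, and its width was 284 bp with a partner of 375 bp. The others were at chr12:2407-2696 with 1748 kb, chr15:1228-1427 with 1714.5 kb, chr10:23934141-23934424 with 1459 kb and chr14:8472-8707 with 1404 kb. Of these 5, 3 were among the members at the very start of a chromosome. H3K27ac after weaning stood at 287.9 kb from the one on chromosome 14, and at 1714.8 kb and 1749.7 kb from those on chromosomes 15 and 12.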

How the data were processed

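Per the labels and the paper's methods, the authors aligned 75-nt reads with BWA at default settings to UMD3.1.1, kept unique alignments with fewer than 2 mismatches and called peaks with MACS2 at default settings against the input. Their notes also list Trim Galore 0.4.1. The deposited values are positions in bp (chromosome, start and end, 3 columns) for each of 8 libraries, with no score, height or read count, so the depth behind a peak was not used here. Unique alignment leaves out reads of long repeats, where H3K9me3 is common. The lowest end minus start in each list was 1 less than 200 bp, so positions were read as 1-based with both ends included.

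Overlaps, distances between nearest edges (0 on contact), partners (most shared bp) and domains (gap of at most 10 kb) were computed in Python 3.11.15 with pandas 2.3.3 and numpy 2.4.6. The rule was checked with bedtools 2.31.1, and the code was tested on simulated data. Groups came from the labels, and with 1 library per group no test was made. Shares carry 95% Wilson intervals. Regions were named by rule: the 10 widest members, the 5 domains with most members, the 5 largest and 5 smallest width ratios, the 5 widest members touching acetylation and the 5 farthest from H3K27ac before weaning, and the text gives those that carry a result. The members, the lists and this rule were chosen with earlier results of these data known. Alternatives covered the overlap, the distance to RNA pol II, peak width, merging, the window, the domain gap, distance limits and the acetylation peaks used.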

Additional observations from a re-analysis of the deposited data

How the results depend on the processing

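The results were recomputed under 17 settings, 4 of them chosen after seeing the data, which gave 176 values. Of these, 90 moved little (within the 95% interval or 1.5 times), 80 moved further and 6 turned direction. Of the 90, 21 were identical to the reported value, 16 of them because no member lay outside chromosomes 1 to 29 and X. Others were the values after weaning when the acetylation lists before weaning alone were cut, which cannot change them. Such values say nothing about stability. The cause was not tested except where a setting by its construction uses fewer peaks. In what follows, distances are medians in kb and shares are of members within 10 kb. The H3K9ac ratio (distance after over before weaning), 1.07, turned to 0.768 with peaks at the lowest width dropped, 0.480 with the chromosome 17 window kept, 0.790 with wide acetylation peaks only and 0.108 with the acetylation lists before weaning cut to the widest, equal in number to after. The last setting could only lower the ratio, since it shortened the lists before weaning alone. The H3K27ac ratio, 0.432, turned to 1.03 with RNA pol II within 10 kb removing a peak and 1.29 with acetylation peaks touching H3K9me3 left out.

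With 50% reciprocal overlap, which by construction keeps width ratios between 0.5 and 2, partner width was 317 bp, the width ratio 1.05 and the share in domains 48.4%. With RNA pol II within 10 kb removing a peak, 277 members were left, 260 bp wide with partners of 320 bp and 32.5% in domains. H3K9ac then lay at 222.1 before and 443.1 after weaning (ratio 2.00; shares 1.81% and 1.44%), and H3K27ac after weaning at 138.5 (shares 7.58% before, 4.33% after). With lowest-width peaks dropped, widths were 289 and 357 bp. With peaks merged within 1 kb, there were 333 members, with partners of 362 bp and 30.3% in domains. H3K9ac lay at 180.8 and 241.0 (7.51% and 14.7%) and H3K27ac after weaning at 105.6 (8.71% and 14.4%, ratio 0.888). With the window kept, member width was 286 bp and the share in domains 65.9%. H3K9ac lay at 46.7 and 22.4 (21.4% and 40.8%) and H3K27ac at 63.9 and 18.6 (40.5% after). Domain gaps of 1, 50 and 100 kb put 27.6%, 67.4% and 70.4% in domains.

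With acetylation peaks wider than their list's median, H3K9ac lay at 249.2 and 196.8 (7.49% and 26.7%) and H3K27ac at 199.7 and 103.3 (4.22% and 21.1%). A limit of 1 kb gave shares of 4.03% and 9.98% for H3K9ac and 1.73% and 6.91% for H3K27ac, and 100 kb gave 49.3%, 48.9%, 48.2% and 61.6%. With the lists before weaning cut to the widest, H3K9ac before lay at 1056 (3.26%) and H3K27ac before at 204.6 (3.84%, ratio 0.240). With acetylation on H3K9me3 left out, H3K9ac lay at 357.9 and 826.3 (2.11% and 1.73%, ratio 2.31) and H3K27ac at 151.9 and 195.3 (6.72% and 4.03%). With 1 value per domain, H3K9ac lay at 182.6 and 251.4 (12.1% and 18.6%) and H3K27ac after at 96.4 (19.5%, ratio 0.946). Without the 5 largest domains, 50.7% were in domains, with shares of 27.1% for H3K9ac and 26.4% for H3K27ac after weaning. No paired analysis was possible because each group had 1 library. No replicate could be left out for the same reason. Peak lists without counts give no depth, so a peak that was not called cannot be told from an absent mark.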

Other observations

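Members within 10 kb of H3K27ac after weaning were on 25 chromosomes, and 128 of these 158 (81.0%) were in domains of 2 or more members, where 169 of the other 363 (46.6%) were. Their median width was 305 bp with partners of 395.5 bp, against 269 and 327 bp for the others. The median width ratio was 1.15 and 1.135.

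The 1 Mb bin at 28 to 29 Mb of chromosome 27 held 12 members of 15 H3K9me3 peaks of the list before weaning, spaced widely enough that most were single at a gap of 10 kb. In the bin at 83 to 84 Mb of chromosome 8 all 11 peaks of the list were members, and in that at 25 to 26 Mb of chromosome 17 it was 26 of 64. These bins were picked after their values were seen, and no test was made of them.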
